A study of Arabidopsis thaliana with 72 samples.

Results

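The morning samples of the series are the 12 arrays taken at Zeitgeber time 4 (ZT4, 4 h after lights on), of 72 arrays in all. They were chosen by their titles and hold 6 arrays from long days and 6 from short days. At ZT4 seedlings of both day lengths had been in light for 4 h, so the light at sampling was matched, while the night before and the daily light period differed in length. All seedlings were wild type Arabidopsis thaliana of the Col-0 accession. The medium, after Murashige and Skoog, held 0.5% sucrose, and the labels name no transgene or further treatment. In long days 16 h of light alternated with 8 h of dark, in short days 8 h of light with 16 h of dark. The 3 tissues were whole leaf (whole cotyledons), isolated mesophyll, the green tissue between the veins, and isolated vasculature, with 1 array for each day length and tissue on day 9 and 1 on day 10. The isolation used enzymes and sonication, which whole leaf did not go through.

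No label says that the arrays of day 9 and day 10 came from separately sown cultures. The p-values therefore rest on the scatter among these arrays alone, part of which may be technical. The labels also do not say whether the tissues of the same day length and day came from the same seedlings. The fit over all tissues counts each array as independent. If seedlings were shared, its standard errors and p-values may be too small. Values are log2(intensity + 1), called the level below. A difference is the mean level in long days minus that in short days, so a difference of 1 is a 2-fold change of intensity plus 1.

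Leaves store starch in the light and break it down at night, and plants adjust the rate of breakdown to the length of the night. The kinase complex SnRK1 is active when sugar runs short and turns on genes for the use of stored protein, lipid and amino acids. The circadian clock is set by light and dark, and GIGANTEA (GI), one of its evening genes, links it to flowering in long days.

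Array medians of the deposited intensities were between 3.41 and 3.66, and each ZT4 array correlated with the array of the same group on the other day at r between 0.983 and 0.992 over the kept probe sets. The first and second principal components of the 12 arrays, with 61.7% and 26.8% of the variance, set the 3 tissues apart. The third, with 4.05%, set all 6 long-day arrays apart from all 6 short-day arrays. The short-day mesophyll array of day 9 lay apart on the fourth (1.88%) and had the lowest array weight, 0.517.

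The labelled tissues were compared with their markers. Summed intensities of 6 measured mesophyll markers were 3416 to 3951 in the 4 vasculature arrays and 9971 to 10394 in the other 8. Those of 6 measured vascular markers were 3138 to 3972 in vasculature, 948 to 1308 in whole leaf and 321 to 502 in mesophyll. Of 5 guard cell and epidermis markers 3 were measured, STOMAGEN, a mesophyll peptide, among them. Their sum did not pass 35.8 in any array. The 8 markers of wounding and isolation stress, all measured, summed to 22.1 to 34.7 in whole leaf and to 4217 to 5676 in mesophyll. Long-day vasculature had sums of 87.1 and 158, short-day vasculature of 395 and 469, so they moved with day length there, and their part in the vasculature differences below was not tested. In such samples fewer cells of a type and less RNA per cell cannot be told apart.

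The morning level of a small share of probe sets differed between long-day and short-day arrays. Of 21827 that passed the filter on low values, 84 were higher in long days (0.385%) and 117 were lower (0.536%) with an adjusted p below 0.05 and at least 1 between the mean levels, which is named a call below. At the adjusted p alone, 516 were higher (2.36%) and 865 were lower (3.96%). The median difference over all kept probe sets was 0.0038. Of the 201 called, 197 had the same sign in all 3 tissues. The call favours this, since it rests on the mean over the tissues, and the share among all probe sets was not computed. The day lengths did not overlap within any tissue for 64 of the 84 higher and 99 of the 117 lower, against 3.14% and 4.39% of all kept probe sets. The calls rest on the same arrays, which favours this separation too. For the called genes named below it thus describes the arrays and is no independent support. Of the 201, 94 had 1 annotated gene, and 18 of these had a gene symbol in RefSeq, 5 higher and 13 lower. Loci given below by their identifier have no symbol there.

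The highest difference among genes with a symbol was that of AKINBETA1 (AT5G21170), which encodes a regulatory beta subunit of SnRK1. In long days its level was 6.95 and 6.55 in whole leaf on days 9 and 10, 7.00 and 7.39 in mesophyll and 6.54 and 6.15 in vasculature. In short days it was 3.84 and 5.36, 4.53 and 4.88, and 4.39 and 4.75 in the same order. Every long-day array was above every short-day array, and the difference was 2.14 ± 0.23 (SE, 6 against 6 arrays; adjusted p = 0.00136). The SE counts these arrays as independent. In short days the level rose from day 9 to day 10 in each tissue. In long days it rose in mesophyll and fell in whole leaf and vasculature.

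Higher still were the loci AT4G27450, AT4G36850 and AT4G15430. AT4G27450 had levels of 4.89 to 7.12 (median 6.38) in long days and 1.87 to 5.22 (median 2.73) in short days, a difference of 3.16 ± 0.42 (adjusted p = 0.00298). Its day lengths overlapped across tissues, through the short-day vasculature, and not within any tissue. AT4G36850 had 5.85 to 8.43 (median 6.07) against 2.54 to 5.10 (median 3.72), with no overlap and a difference of 2.87 ± 0.19 (adjusted p = 0.000103). AT4G15430 had 4.29 to 7.34 (median 5.37) against 2.83 to 3.5 (median 2.95), again with no overlap, and a difference of 2.57 ± 0.34 (adjusted p = 0.00298).

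PPDK (AT4G15530), pyruvate orthophosphate dikinase, which interconverts pyruvate and phosphoenolpyruvate, was also higher in long days. Whole leaf had 7.43 on both days under long days against 4.04 and 3.68 under short days. Mesophyll had 4.49 and 6.26 against 4.53 and 3.78, and vasculature 3.46 and 2.59 against 2.27 and 2.34. The day lengths overlapped in mesophyll and nowhere else, and the difference was 1.84 ± 0.45 (adjusted p = 0.0372). Its call was lost in 7 of 12 fits that each left out 1 array, with a largest adjusted p of 0.0912. Those were the fits without any 1 of the 4 whole leaf arrays, without the day 10 mesophyll array of either day length and without the day 9 long-day vasculature array.

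SIS (AT5G02020), a salt-induced serine-rich protein, had levels of 5.79 to 8.84 in long days (median 6.52) and 3.88 to 6.63 in short days (median 5.55), and a difference of 1.58 ± 0.21 (adjusted p = 0.00303). ALN (AT4G04955), allantoinase, an enzyme of purine breakdown, had 6.4 and 5.15 in whole leaf, 4.35 and 5.06 in mesophyll and 8.38 and 8.05 in vasculature in long days, against 3.4 and 4.36, 4.02 and 4.23, and 6.30 and 7.09 in short days. Neither gene overlapped between day lengths within a tissue, and the difference of ALN was 1.34 ± 0.29 (adjusted p = 0.0229). The ALN call was lost without the day 10 long-day mesophyll array (adjusted p = 0.0509) and without the day 9 short-day vasculature array.

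PMEPCRF (AT5G53370), a pectin methylesterase of the cell wall, had 4.88 and 5.23 in whole leaf and 5.70 and 6.10 in vasculature in long days, against 3.48 and 3.11 and 3.53 and 4.3. Mesophyll, with 2.59 and 3.02 against 2.7 and 2.78, overlapped. The difference was 1.27 ± 0.29 (adjusted p = 0.0276), and the call was kept in 5 of 12 fits, those without 1 of the 4 mesophyll arrays or without the day 10 short-day vasculature array (largest adjusted p 0.0675).

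The other loci among the 12 highest calls that were separate within every tissue were AT5G40450 (1.61), AT5G63190 (1.51), AT5G54130 (1.42), AT3G13062 (1.35), AT3G19230 (1.33) and AT1G68440 (1.25). AT5G63190 had 4.35 to 4.89 in long days and 2.71 to 3.75 in short days, and AT3G19230 3.55 to 5.53 and 2.75 to 3.35. Those 2 did not overlap over all 12 arrays.

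Among genes past the adjusted p with a difference under 1, 28 with a symbol were higher in long days, and those named here were chosen after their values were seen. ATG8F and ATG8E, ubiquitin-like proteins of autophagosome membranes, had differences of 0.89 ± 0.14 (adjusted p = 0.00617) and 0.57 ± 0.14 (adjusted p = 0.0371). ATG8A, of the same family, did not pass, with 0.08 ± 0.17 (adjusted p = 0.82). ATG8F ranged from 8.15 to 9.26 in long days and from 7.37 to 8.34 in short days, and was separate within each tissue. SDP1, a triacylglycerol lipase that frees fatty acids from storage oil, had 3.77 to 4.27 against 3.04 to 3.51, with no overlap, and a difference of 0.76 ± 0.08 (adjusted p = 0.00146). AAH, allantoate amidohydrolase, which acts after ALN in purine breakdown, had 0.60 ± 0.14 (adjusted p = 0.0342).

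The isocitrate dehydrogenases cICDH, which is cytosolic, and IDH-V, a mitochondrial subunit, were also among the 28, with 0.80 ± 0.16 (adjusted p = 0.0187) and 0.51 ± 0.09 (adjusted p = 0.0117). ACLA-3, a subunit of ATP citrate lyase, which makes cytosolic acetyl-CoA, had 0.63 ± 0.13 (adjusted p = 0.0203). PSY1R, a receptor kinase for a growth peptide, had 0.97 ± 0.13 (adjusted p = 0.00298), and BIK1, a cytoplasmic kinase of immune signalling, had 0.97 ± 0.23 (adjusted p = 0.0312). Of these 5, cICDH overlapped in vasculature and the others were separate within each tissue.

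Most listed genes had no kept probe set with a single gene, so each list below is a fraction of its pathway. Its counts are to be read against the shares of all probe sets past the adjusted p, 2.36% higher and 3.96% lower. The lists were chosen with earlier results of these data known, so such counts are descriptions and no independent test. The list for sugar starvation and darkness had 9 measured members of 60. AKINBETA1 and PPDK were called and ATG8E passed the adjusted p alone, all higher, and 0 were lower, so 3 of 9 passed upwards. The median over the 9 was 0.45. ETFQO, which passes electrons from amino acid breakdown to the respiratory chain, had 0.59 ± 0.17 (adjusted p = 0.0639), ICL, isocitrate lyase of the glyoxylate cycle, 0.45 ± 0.27 (adjusted p = 0.357), and BZIP53, a transcription factor gene, -0.19 ± 0.15 (adjusted p = 0.478). Of 5 measured genes of nitrogen and sulphur assimilation, ALN and AAH passed the adjusted p, both higher, against 2.36% of all probe sets, and the median was 0.0075.

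**Figure D1:**
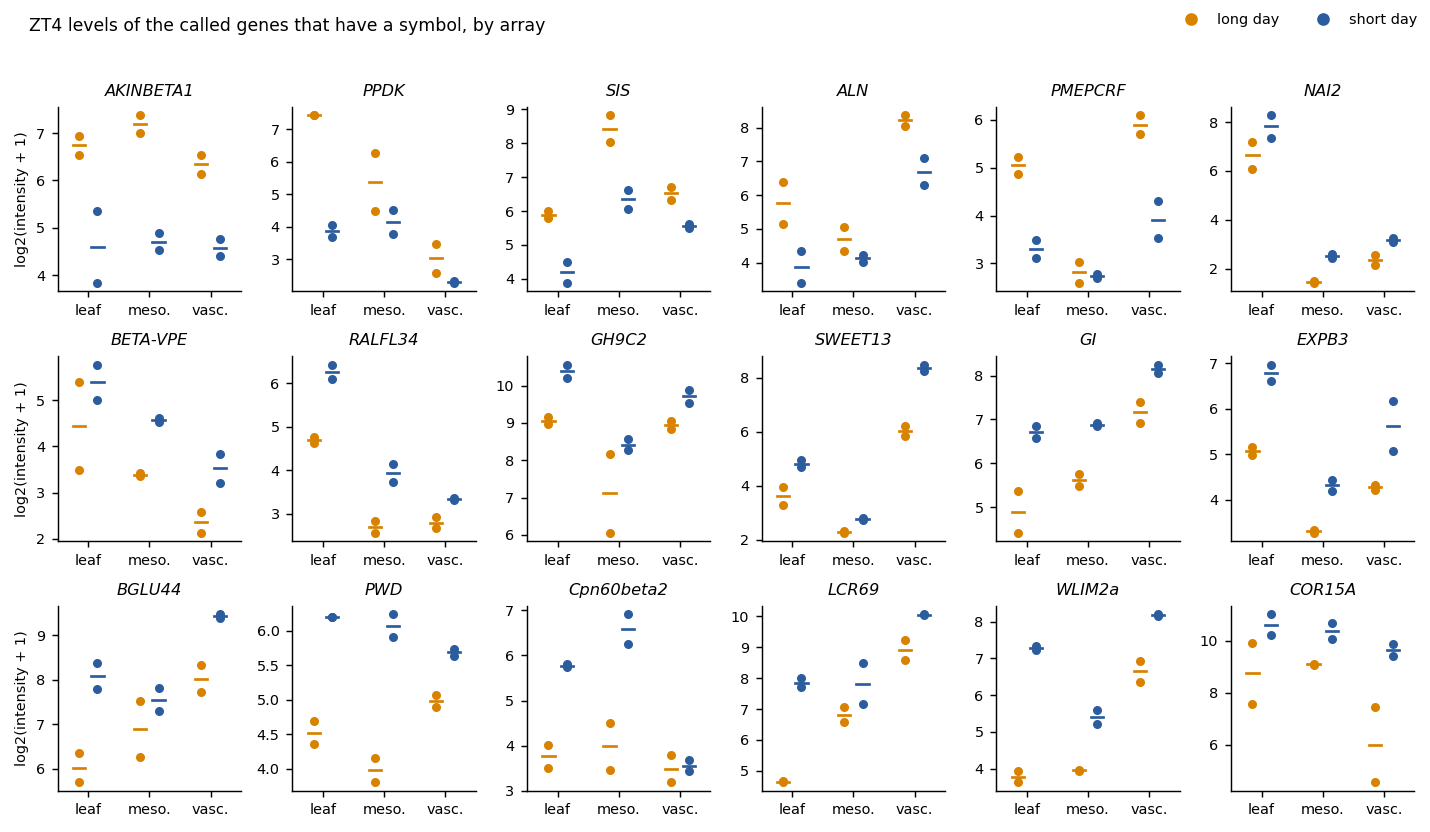
Levels at ZT4, log2(intensity + 1) on the y axis, of the 18 called genes with a symbol in whole leaf (leaf), mesophyll (meso.) and vasculature (vasc.), long days in orange and short days in blue. Each point is 1 array and each bar the mean of 2; genes run from AKINBETA1, with the highest difference (2.14), to COR15A, with the lowest (-2.27).

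Genes lower in long days included GI and enzymes of starch breakdown. GI (AT1G22770) had 5.36 and 4.42 in whole leaf, 5.76 and 5.49 in mesophyll and 7.40 and 6.93 in vasculature in long days. In short days it had 6.85 and 6.59, 6.85 and 6.91, and 8.25 and 8.06. Within each tissue both short-day arrays were above both long-day arrays, and the difference was -1.36 ± 0.18 (adjusted p = 0.00298).

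PWD (AT5G26570), phosphoglucan water dikinase, which phosphorylates starch granules and so opens them to breakdown, had 4.35 and 4.69 in whole leaf, 3.8 and 4.15 in mesophyll and 5.07 and 4.89 in vasculature in long days. In short days it had 6.20 on both days, 5.90 and 6.23, and 5.64 and 5.73. Every short-day array was above every long-day array, with a difference of -1.49 ± 0.20 (adjusted p = 0.00298). DPE1, the plastid disproportionating enzyme, which recycles short glucans from starch, had 3.35 to 4.59 in long days and 4.22 to 5.81 in short days, was separate within each tissue and differed by -0.92 ± 0.17 (adjusted p = 0.0141). Of 8 measured starch genes PWD and DPE1 passed the adjusted p, both lower, against 3.96% of all probe sets, and the list median was -0.23. APL3, a subunit of ADP-glucose pyrophosphorylase of starch synthesis, had -0.67 ± 0.21 (adjusted p = 0.0863), and the branching enzyme SBE2.2 -0.16 ± 0.09 (adjusted p = 0.329).

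COR15A (AT2G42540), a chloroplast protein that protects membranes in the cold, had 7.56 and 9.94 in whole leaf, 9.12 and 9.07 in mesophyll and 7.47 and 4.55 in vasculature in long days. In short days it had 11.02 and 10.24, 10.09 and 10.69, and 9.87 and 9.43. The day lengths did not overlap within a tissue, but the days lay far apart in long-day whole leaf and vasculature, and the difference was -2.27 ± 0.56 (adjusted p = 0.0371). Its call was kept in 4 of 12 fits, those without the day 10 long-day whole leaf array, either long-day vasculature array or the day 9 short-day mesophyll array, and the largest adjusted p was 0.0872. In the fit over all tissues all 6 measured cold response genes had negative differences (median -0.69). COR15A was the 1 past the adjusted p, against 3.96% of all probe sets. Of the 12140 kept probe sets with 1 gene, 48.1% had a negative difference. KIN2 had -0.95 ± 0.40 (adjusted p = 0.197), COR47, a dehydrin, -0.69 ± 0.43 (adjusted p = 0.378) and COR15B -0.69 ± 0.25 (adjusted p = 0.13). The long-day means of COR15B (1.91) and LTI30 (1.89) lay under the filter's floor, a level of 1.92 under which values count as background. The sizes of their differences thus rest in part on background values. COR47 had -0.06 in whole leaf, 0.41 in mesophyll and -2.43 in vasculature, and KIN1 -0.16, 0.13 and -0.46 in the same order. COR15A, COR15B, KIN2 and LTI30 were negative in each tissue.

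SWEET13 (AT5G50800), a sucrose efflux carrier, was highest in vasculature, with 5.86 and 6.21 under long days against 8.25 and 8.48 under short days. Whole leaf had 3.29 and 3.96 against 4.96 and 4.69, and mesophyll 2.31 and 2.27 against 2.80 and 2.73. The day lengths were separate within each tissue, and the difference was -1.34 ± 0.25 (adjusted p = 0.014). TMT2, which moves sugars into the vacuole, had -0.61 ± 0.14 (adjusted p = 0.0263) and was separate within each tissue as well. Of 18 measured sugar transporter genes these 2 passed the adjusted p, both lower, against 3.96% of all probe sets, and the median was 0.05. SWEET4 had -1.20 ± 0.41 (adjusted p = 0.109) and SAG29 1.1 ± 0.36 (adjusted p = 0.0997).

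WLIM2a (AT2G39900), an actin-bundling LIM protein, had 3.63 to 6.93 in long days (median 3.95) and 5.20 to 8.20 in short days (median 7.28), a difference of -2.16 ± 0.30 (adjusted p = 0.00372). LCR69 (AT2G02100), a small cysteine-rich protein of the defensin type, had 4.62 to 9.23 (median 6.81) against 7.15 to 10.06 (median 8.24), and -1.79 ± 0.36 (adjusted p = 0.0169). Neither overlapped within a tissue. Cpn60beta2 (AT3G13470), a plastid chaperonin subunit, had 3.51 and 4.02 against 5.74 and 5.81 in whole leaf, 4.5 and 3.46 against 6.91 and 6.25 in mesophyll, and 3.18 and 3.79 against 3.43 and 3.68 in vasculature, where the day lengths overlapped. Its difference was -1.56 ± 0.37 (adjusted p = 0.0326), and the call was kept in 4 of 12 fits, those without 1 of the 4 vasculature arrays (largest adjusted p 0.0795).

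EXPB3 (AT4G28250), a wall-loosening beta-expansin, had 3.27 to 5.15 in long days (median 4.27) and 4.19 to 6.97 in short days (median 5.62), a difference of -1.36 ± 0.18 (adjusted p = 0.00294). RALFL34 (AT5G67070), a secreted signalling peptide, had 2.57 to 4.78 (median 2.87) against 3.31 to 6.43 (median 3.94), and -1.11 ± 0.16 (adjusted p = 0.00399). Both were separate within every tissue. BGLU44 (AT3G18080), a beta-glucosidase, had -1.38 ± 0.27 (adjusted p = 0.0165) and overlapped in mesophyll. GH9C2 (AT1G64390), an endoglucanase, had -1.13 ± 0.28 (adjusted p = 0.0398), and its call was kept in 2 of 12 fits, those without the day 9 long-day mesophyll or the day 10 short-day vasculature array (largest adjusted p 0.0959). Of 15 measured wall growth genes GH9C2 was the 1 that passed, against 3.96% of all probe sets, and the median was -0.09.

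NAI2 (AT3G15950), needed to form ER bodies, which store defence enzymes, had 7.20 and 6.10 in long-day and 7.37 and 8.29 in short-day whole leaf, and at most 3.25 in the isolated tissues. Both long-day mesophyll arrays lay under the filter's floor, an intensity of 2.77 or a level of 1.92, under which values count as background. Its difference was -1.02 ± 0.20 (adjusted p = 0.0149), became -0.86 with those arrays set at the floor, and fell below the minimum of 1 in 4 of 12 fits. Those were without the day 10 long-day whole leaf or vasculature array, the day 10 short-day whole leaf array or the day 9 short-day mesophyll array. PYK10, a beta-glucosidase of ER bodies, had -1.36 ± 0.41 (adjusted p = 0.0731). NAI2 was the 1 of 6 measured glucosinolate and ER body genes that passed, against 3.96% of all probe sets, and the median was -0.19. BETA-VPE (AT1G62710), a vacuolar processing protease, had -1.1 ± 0.27 (adjusted p = 0.0386) and overlapped in whole leaf. Its call was kept in 3 of 12 fits, those without the day 10 whole leaf array of either day length or the day 10 short-day vasculature array (largest adjusted p 0.0934).

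Loci without a symbol filled 9 of the 12 lowest calls that were separate within every tissue. AT1G56300 was the lowest, with 1.89 to 2.75 (median 2.12) in long days and 4.04 to 5.29 (median 4.72) in short days, and -2.54 ± 0.17 (adjusted p = 0.000103). AT2G43550 had 2.72 to 4.36 (median 4.24) against 5.16 to 6.81 (median 6.21), and -2.06 ± 0.22 (adjusted p = 0.00136). Neither overlapped over the 12 arrays, nor did AT4G21215 (-1.86), AT1G05835 (-1.75) and AT3G54400 (-1.67). Separate within each tissue were also AT1G10640 (-1.66), AT2G37990 (-1.56) and AT1G60590 (-1.51). AT4G30650 did not overlap over the 12 arrays either, but 4 of its 6 long-day arrays, those of whole leaf and vasculature, lay under the floor. Its fitted difference of -2.00 thus rests on background values there, and with those arrays set at the floor it was -1.81. Its call was lost without either long-day whole leaf array (largest adjusted p 0.0542). AT1G60590 kept its call in 6 of 12 fits, those without a vasculature array, the day 9 long-day whole leaf array or the day 9 short-day mesophyll array. AT1G10640 kept it in 3, those without the day 9 long-day mesophyll, the day 10 long-day vasculature or the day 9 short-day vasculature array.

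Another 50 genes with a symbol were lower past the adjusted p with a difference under 1, and those named here were chosen after their values were seen. BUB3.1, of the spindle checkpoint, had -0.83 ± 0.17 (adjusted p = 0.0182), IMP4, of ribosomal RNA processing, -0.88 ± 0.17 (adjusted p = 0.0162), and NRPA1, the largest subunit of RNA polymerase I, -0.68 ± 0.12 (adjusted p = 0.00964). PRL, a subunit of the MCM replication helicase, had -0.61 ± 0.16 (adjusted p = 0.0445), and the beta-tubulin TUB6 -0.59 ± 0.11 (adjusted p = 0.0113). PRL overlapped in mesophyll and the other 4 were separate within each tissue. BUB3.1 was the 1 of 7 measured cell division genes that passed, against 3.96% of all probe sets, and the list median was -0.18. STOMAGEN, a mesophyll peptide that promotes stomata, had -0.54 ± 0.14 (adjusted p = 0.039) and CHIL, of flavonoid synthesis, -0.61 ± 0.15 (adjusted p = 0.0324), each the 1 of 5 measured in its list that passed, with list medians of -0.06 and -0.03.

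The clock and flowering lists were thinly measured. Of 16 morning clock genes 0 had a kept probe set with a single gene, and GI was the 1 measured of 13 evening clock genes. Of 8 measured clock modifiers, TIC, a nuclear regulator of the clock, passed the adjusted p upwards, against 2.36% of all probe sets. TIC had 8.69 to 9.02 in long days, 8.17 to 8.83 in short days and 0.33 ± 0.07 (adjusted p = 0.0272). LIP1 had 0.24 ± 0.09 (adjusted p = 0.142) and XCT -0.21 ± 0.07 (adjusted p = 0.129). The other 5 lay between -0.17 for COR27 and 0.03 for STIPL1, with FIO1 at -0.15, TZP at -0.08 and SIC at -0.08. Of 3 measured flowering genes, SMZ, a flowering repressor, passed, with 1.73 to 2.17 against 1.95 to 3.05 and -0.50 ± 0.11 (adjusted p = 0.0265). The related repressor SNZ had -0.10 ± 0.25 (adjusted p = 0.86) and FD, a partner of the florigen, -0.15 ± 0.09 (adjusted p = 0.379).

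The photosynthesis lists had few members past the adjusted p, as did all probe sets (2.36% higher and 3.96% lower). Of 14 measured thylakoid genes, NdhN, of the chloroplast NDH complex, passed the adjusted p with -0.29 ± 0.06 (adjusted p = 0.024), and the median was 0.02. LIL3:1, which holds chlorophyll synthesis enzymes at the membrane, was the 1 of 6 measured photoprotection genes that passed, with -0.36 ± 0.08 (adjusted p = 0.0227) (list median -0.02). The 63 kept probe sets of the plastid genome were between -0.38 and 0.10, with a median of -0.04 and 0 past the adjusted p. Also with 0 past it were the lists for the Calvin cycle (3 measured, median 0.12), chlorophyll synthesis (7, 0.08) and photorespiration (1, HPR, 0.06). The same held for vascular genes (11, 0.05), early wound and stress (13, -0.20), heat shock and protein folding (8, -0.15), iron supply (5, 0.07), shade and auxin response (5, 0.04), light receptors (4, -0.07) and gibberellin and brassinosteroid (3, -0.03).

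**Figure D2:**
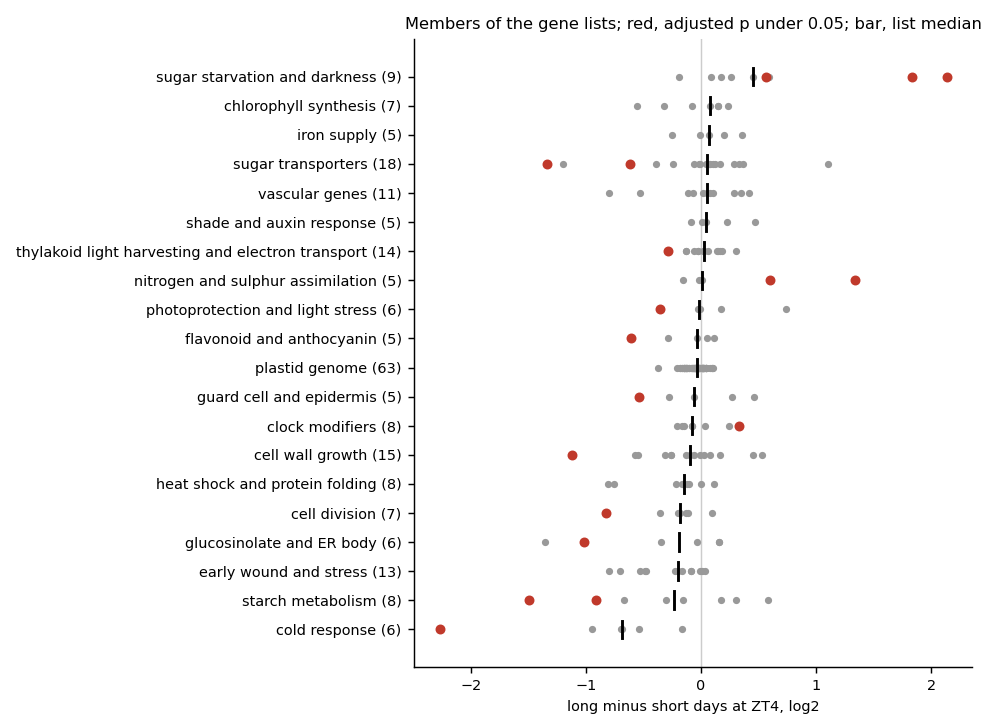
Differences between long and short days at ZT4 (log2) for the measured members of the gene lists with 5 or more members, whose number stands after each name. Each point is a probe set, red where the adjusted p is under 0.05, and the black bar is the list median, which is highest for sugar starvation and darkness (0.45) and lowest for cold response (-0.69).

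Within single tissues, with 2 arrays against 2, whole leaf had 303 calls higher in long days (1.39%) and 307 lower (1.41%). Mesophyll had 129 higher (0.591%) and 302 lower (1.38%), a split that became 156 and 223 with quantile normalization. Vasculature had 148 higher (0.678%) and 214 lower (0.98%). In all 3 tissues 22 probe sets were called, each in 1 direction, and 1011 were called in exactly 1 tissue. Of 185 called in 2 or more, 7 had opposite signs. The whole leaf count of 610 became 347 without the day 9 long-day array and 313 without the day 9 short-day array. The mesophyll count of 431 became 254 without the day 10 long-day array, 279 without the day 9 short-day array and 948 without the day 10 short-day array. The vasculature count of 362 became 162 without the day 9 short-day array.

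The test of the 3 tissue differences against each other (limma's moderated F test of day length by tissue) passed for 494 probe sets (2.26%), among them 47 of the 201 called over all tissues. The count was 156 and 230 without the day 9 or day 10 long-day whole leaf array, and 182 and 273 without the short-day ones. It was 272 without the day 9 long-day mesophyll array and 1194 without the day 10 short-day one. Without the day 9 or day 10 long-day vasculature array it was 239 and 258, and without the day 9 short-day one 164.

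AT1G66100 had the widest spread between tissues. In whole leaf its long-day levels were 10.62 and 10.13 and its short-day levels 3.36 and 4.1, a difference of 6.65 ± 0.23 (SE, 2 against 2; adjusted p from limma = 1.3e-06). The difference was 0.26 in mesophyll and 0.12 in vasculature (adjusted p between tissues = 2.54e-05). AT2G05540 also differed in whole leaf, with 7.25 and 6.33 against 2.74 and 3.00, or 3.93 ± 0.29, and had 0.08 and 0.11 in mesophyll and vasculature (adjusted p between tissues = 0.00243). AT5G45670 ran the other way, with 2.24 and 2.3 against 6.11 and 6.62 in whole leaf, or -4.09 ± 0.21, and had -0.24 and -0.59 (adjusted p between tissues = 0.000921). In the isolated tissues none of these 3 loci passed a level of 2.83. Vascular markers summed to 1264 and 1308 in long-day whole leaf and to 948 and 1059 in short-day whole leaf. By gene, their whole leaf differences were 1.55 for GTR2, 0.34 for LHW and 0.30 for SWEET11. CLE26 (-0.36) and CLE41 (-0.85) went the other way, and OPS lay under the floor there. Guard cell and epidermis markers summed to 35.8 and 29.9 against 34.4 and 26.9. In that sum FMA (0.86) and BLUS1 (0.73) were higher in long-day whole leaf, and STOMAGEN, a mesophyll peptide, was lower (-0.98). The part of these markers in the differences of the 3 loci was not tested.

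AT4G22485 and AT2G47870 differed in vasculature. AT4G22485 had 1.91 and 1.89 in long-day and 6.30 and 6.49 in short-day vasculature, and at most 2.01 in the other 8 arrays (adjusted p between tissues = 2.07e-06). Both long-day vasculature arrays lay under the floor of 1.92, so the difference is a bound, at least 22.4-fold lower in long days. Of its 12 arrays 8 lay under the floor. AT2G47870 had 4.11 and 3.51 against 8.70 and 7.18 in vasculature, or -4.13 ± 0.44 (adjusted p between tissues = 0.0211). That call was lost without the day 9 long-day whole leaf or the day 10 long-day vasculature array, with a largest adjusted p of 0.0753. Of the 8 markers of wounding and isolation stress, 7 had negative differences in vasculature, and the 8 ran from -2.24 for STZ to 0.10 for CML37. ABR1 (-0.0019) lay under the floor in all vasculature arrays, and PUB22 (-0.09) in all but the day 9 short-day one. Their signs thus rest on background values. The share of all probe sets with a negative vasculature difference was not computed. The adjusted p between tissues was 0.0123 for STZ, and ORA47 (-1.72) and CML38 (-1.29) missed the threshold (0.221 and 0.0994).

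FAMT, a farnesoic acid methyltransferase, differed in mesophyll, with 3.22 and 4.23 in long days against 7.22 and 6.80 in short days, or -3.28 ± 0.31 (adjusted p between tissues = 0.0055). In short-day whole leaf and in vasculature of both day lengths it lay under the floor. The wound and isolation markers summed to 4217 and 4726 in long-day mesophyll and to 5676 and 4767 in short-day mesophyll, and their part was not tested.

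**Figure D3:**
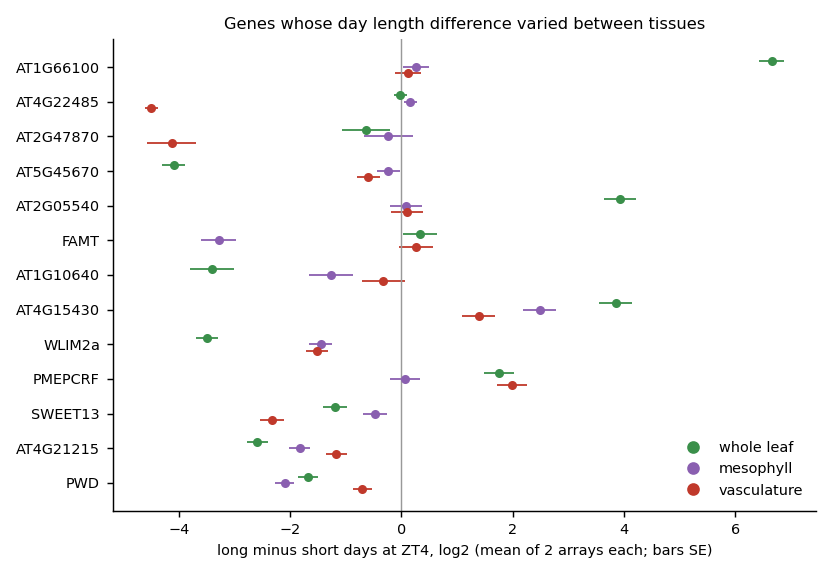
Difference between long and short days at ZT4 (log2, x axis) in each tissue for the 13 named genes whose tissue differences passed an adjusted p of 0.05 against each other. Points are differences of means of 2 arrays and bars the standard error; AT1G66100 reaches 6.65 and AT5G45670 -4.09 in whole leaf, and the vasculature point of AT4G22485 rests on long-day arrays under the floor.

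Several genes called over all tissues also differed between them. In whole leaf, mesophyll and vasculature, AT4G15430 had differences of 3.85, 2.48 and 1.39, WLIM2a -3.5, -1.45 and -1.52, and PWD -1.68, -2.10 and -0.70. SWEET13 had -1.20, -0.48 and -2.33, and PMEPCRF 1.76, 0.07 and 1.98. AT1G10640 had -3.4, -1.26 and -0.32, and AT4G21215 -2.59, -1.83 and -1.17. Whole leaf was farthest from 0 for AT4G15430, WLIM2a, AT1G10640 and AT4G21215, mesophyll for PWD, and vasculature for SWEET13 and PMEPCRF. The adjusted p between tissues was 0.0105 for WLIM2a and from 0.0313 for SWEET13 to 0.0469 for AT4G21215 among the others. WLIM2a kept this result in all 12 fits that left out 1 array, and each of the other 6 lost it in 8 or more.

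The same comparison was made at the other times, on other arrays. Called probe sets numbered 138 at ZT0 (0.632%), 439 at ZT8 (2.01%), 778 at ZT12 (3.56%), 1027 at ZT16 (4.71%) and 200 at ZT20 (0.916%). At ZT8, as at ZT4, both day lengths had seen the same hours of light, and at ZT12 only the long-day seedlings were in light. Of the 201 called at ZT4, 99 were called at ZT8 (49.3% of the ZT4 calls and 22.6% of the ZT8 calls), all in the same direction. At ZT12 60 were called (29.9% and 7.71%), 14 in the same and 46 in the opposite direction. At ZT16 68 were called (33.8% and 6.62%), 28 in the same and 40 in the opposite direction. ZT0 shared 13 (6.47% and 9.42%) and ZT20 shared 23 (11.4% and 11.5%). For 58 probe sets ZT4 was the 1 time with a call.

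**Figure D4:**
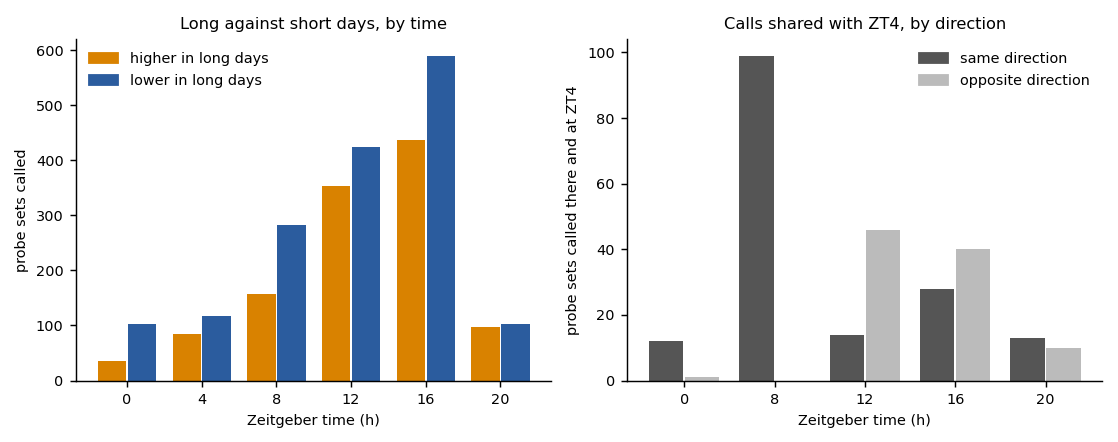
Left, number of probe sets called higher or lower in long than in short days at each Zeitgeber time (h), 6 arrays against 6. Right, number called at ZT4 and also at another time, by direction; ZT8 shares 99, all in the same direction, and at ZT12 46 are opposite and 14 the same.

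Against the mean of the differences at the other 5 times, the ZT4 difference was higher for 182 probe sets (0.834%) and lower for 188 (0.861%). Of the 201 ZT4 calls, 116 were among them. Both comparisons use the same ZT4 difference, which favours this overlap, so it is no independent support. AKINBETA1 had -0.14 at ZT0, 2.14 at ZT4, 2.11 at ZT8, -3.54 at ZT12, -3.45 at ZT16 and -0.38 at ZT20. It was thus higher in long days while both were in light and lower at ZT12 and ZT16, and its ZT4 difference exceeded the mean of the others by 3.21 ± 0.21 (adjusted p = 2.44e-14). AT4G36850 and AT4G27450 turned in the same way, with 2.90 and 3.01 at ZT8 and -5.15 and -4.3 at ZT12. They exceeded the others by 4.81 ± 0.31 (adjusted p = 2.21e-14) and 4.53 ± 0.38 (adjusted p = 1.47e-11). SIS, ALN and ATG8F were higher in long days at ZT8 too (1.89, 0.88 and 0.98) and lower at ZT16 (-1.34, -0.85 and -0.83).

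AT4G15430 differed at ZT4 on the way from a high to a low level. Its mean level was 8.49 at ZT0, 5.62 at ZT4 and 2.36 at ZT8 under long days, against 8.24, 3.05 and 2.14 under short days. Its ZT4 difference exceeded the others by 2.59 ± 0.22 (adjusted p = 2.4e-11). GI and AT1G56300 differed on the way up. GI had 2.35, 5.89 and 8.98 under long days against 2.36, 7.25 and 9.00 under short days at the same times, and AT1G56300 1.72, 2.18 and 7.53 against 1.78, 4.71 and 7.99. For all 3 the short-day level at ZT4 was the nearer to that of ZT8. At ZT12 GI was higher in long days, by 2.02 (adjusted p = 0.0101).

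PWD had mean levels of 5.70 at ZT0, 4.49 at ZT4 and 8.03 at ZT8 in long days, and of 5.28, 5.98 and 8.54 in short days. Its level at ZT4 was below that at ZT0 in long days and above it in short days, and its difference at ZT8 was -0.51 (adjusted p = 0.00559). DPE1 had 0.01 at ZT0 and -0.53 at ZT8. SWEET13 had between -0.14 and 0.32 at the other 5 times, none past the adjusted p, and mean levels of 3.98 and 5.32 at ZT4 in long and short days.

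COR27, a cold- and blue-light-regulated clock repressor, lay under the floor of 1.92 on 9 of the 12 ZT4 arrays, so a day length difference could not be measured there. At the other 5 times it was lower in long days, from -1.87 at ZT0 to -3.49 at ZT16, each past the adjusted p. At ZT4 its level was at most 2.95 in any of the 12 arrays, and the fitted value of 2.43 ± 0.26 against the other times (adjusted p = 4.36e-09) rests on those background values. COR15A had negative differences at all 6 times, from -0.12 at ZT20 to -2.27 at ZT4, and missed the threshold against the other times (adjusted p = 0.0576).

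PPDK and PMEPCRF did not pass against the other times either (adjusted p = 0.517 and 0.45). PPDK was higher in long days by 2.37 at ZT16 and 2.09 at ZT20, and PMEPCRF by 1.23 at ZT0 and 1.32 at ZT16. The 5 lowest against the other times were AT2G47870 (-2.25), AT1G56300 (-2.22), AT2G43550 (-2.12), AT5G24155 (-2.06) and AT4G30650 (-1.96). AT5G24155 did not pass at ZT4 itself, with -0.61 ± 0.25 (adjusted p = 0.184), and was higher in long days at ZT12 by 3.21 ± 0.70 (adjusted p = 0.00855).

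**Figure D5:**
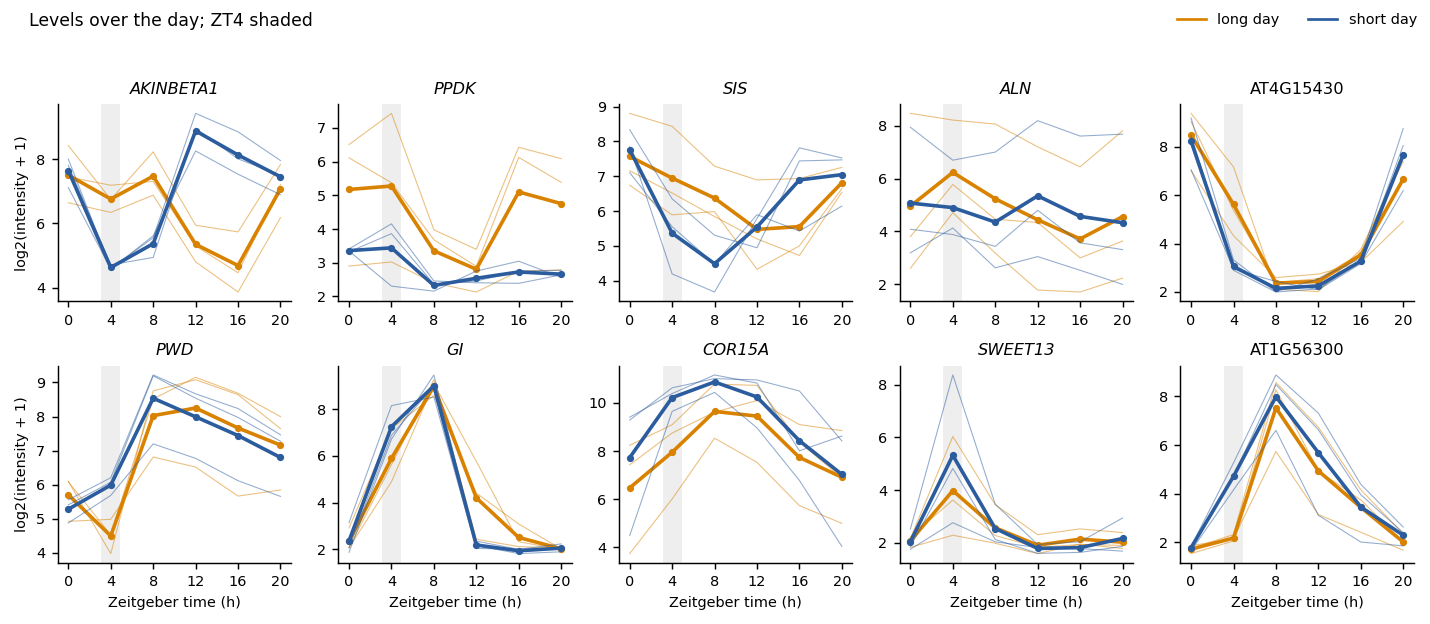
Level (log2(intensity + 1), y axis) of 10 genes at the 6 Zeitgeber times (h) in long days (orange) and short days (blue); thick lines are means of 6 arrays, thin lines the 3 tissues, and the grey band marks ZT4. AKINBETA1 is higher in long days at ZT4 and ZT8 and lower at ZT12 and ZT16, while GI and AT1G56300 separate at ZT4 and lie close at ZT0 and ZT8.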

How the data were processed

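Per the labels' protocols, total RNA was purified with an RNeasy kit, labelled with biotin and hybridised to 1-colour Affymetrix arrays. The deposited intensities, on a linear scale from 0.835 to 18024, are the authors' GCRMA values according to the labels, per the submitters' processing notes. No GCRMA version is given in the sources used here. GCRMA brings arrays to a common distribution, so a shift shared by most genes would be removed.

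Groups came from the titles. Levels were computed as log2(intensity + 1), which understates changes of dim genes. Of 28583 probe sets 21827 were kept, those with an intensity over 2.77 on 6 or more of the 72 arrays. That floor, a level of 1.92, is percentile 40 of all values on all arrays. Where both arrays of a group lay under it, a fold was computed from the floor as a bound. By the platform annotation 16722 of the 28583 had 1 gene, 759 several and 11102 none listed, and 16574 of the 16722 were found by Entrez identifier in RefSeq (assembly TAIR10.1), which gave the symbols. RefSeq gives the symbol PWD also to AT4G24450, which is not the gene described.

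Tests were two-sided, with limma 3.58.1 in R 4.3.3, lmFit and eBayes, and Benjamini-Hochberg adjustment over all kept probe sets. The ZT4 fit had tissue as a block, the tissue fits 6 group means, and the fit of times 36 group means over 72 arrays. The code was tested on simulated data. The comparison, the lists and the rules were chosen with earlier results of these data known.

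Genes with a single-gene probe set are named by rule. The rule takes the 12 highest and 12 lowest calls without overlap within a tissue, the 6 widest between tissues, the 5 highest and 5 lowest against the other times, the clock and flowering lists, and called members of the other lists. The remaining genes with a symbol past the adjusted p were chosen after their values were seen. Alternatives changed the pseudocount, the filter, the scaling, the block, the fit and the arrays used. Figures were drawn with matplotlib 3.10.9. The number of arrays limits the precision.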

Additional observations from a re-analysis of the deposited data

Results flagged for a closer look

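The day length difference at ZT4 differed between the 3 tissues for 494 probe sets, by limma's moderated F test. Among the named genes the gap between the highest and the lowest tissue difference (log2) was 6.53 for AT1G66100, 4.66 for AT4G22485, 3.89 for AT2G47870, 3.85 for AT5G45670, 3.84 for AT2G05540 and 3.62 for FAMT. That of AT4G22485 rests on long-day vasculature arrays under the filter's floor and is no exact size, and FAMT lay under it in 7 of 12 arrays. It was 3.08 for AT1G10640, 2.47 for AT4G15430, 2.05 for WLIM2a, 1.91 for PMEPCRF, 1.86 for SWEET13, 1.42 for AT4G21215 and 1.39 for PWD.

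The ZT4 difference departed from the mean of the other 5 times for 370 probe sets. The named genes above the other times were AT4G36850 by 4.81, AT4G27450 by 4.53, AKINBETA1 by 3.21, AT4G15430 by 2.59 and COR27 by 2.43 (log2). COR27 lay under the floor on 9 of the 12 ZT4 arrays. Those below had -1.96 for AT4G30650, -2.06 for AT5G24155, -2.12 for AT2G43550, -2.22 for AT1G56300 and -2.25 for AT2G47870. AT4G30650 lay under it on 4 of 6 long-day arrays. Each of these 10 kept its call in all 12 fits that left out 1 ZT4 array. They were picked as the most extreme in these data and each fit kept all arrays but 1, which favours this, so it is no replication.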

How the results depend on the processing

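Of the 36 named calls, 25 were kept in all 12 fits that left out 1 array. Over 15 other settings, 381 of 540 results of these genes kept their call. With log2(intensity + 16) the calls over all tissues numbered 50, those in whole leaf 209, in mesophyll 92 and in vasculature 130, and those of ZT4 against the other times 134; a larger pseudocount shrinks the differences of dim genes. With no minimum difference 1381 were called. Without whole leaf 73 were called. Against ZT8 alone, in place of the mean of the other times, the count was 92. For day 9 alone and day 10 alone limma called 0, with 2216 and 2539 at an unadjusted p under 0.05. All 201 calls had the same direction on each day, and 184 and 148 differed by at least 1. The 201 were chosen on these same arrays, which favours such agreement, so it is no replication.

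With day as a replicate block the counts were 187 over all tissues, 605 in whole leaf, 428 in mesophyll, 372 in vasculature, 393 between tissues and 370 against the other times. With the tissue and day pair as a block, 125 were called. Deviations of same-day arrays from long and short days correlated at -0.0414, 0.0315 and -0.0597 in whole leaf, mesophyll and vasculature. Within a tissue the long-day and short-day arrays of a day thus shared little scatter. With so few arrays these correlations cannot show whether arrays of a day shared a culture or batch. Scatter shared between tissues of the same day length and day was not tested.

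Leaving out 1 array gave 137 to 217 calls over all tissues, 313 to 658 in whole leaf, 254 to 948 in mesophyll, 162 to 419 in vasculature, 156 to 1194 between tissues and 336 to 433 against the other times. The cause was not tested.

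Differences near 0 changed sign under some settings. Leaving out 1 array gave -0.0218 to 0.1042 for STIPL1, -0.268 to 0.0198 for SNZ, -0.1589 to 0.0034 for SIC and -0.2526 to 0.0183 for COR27. The signs turned without the day 9 vasculature array of either day length for STIPL1 (-0.0218 and -0.0114) and without the day 10 long-day mesophyll array for SIC. They turned without the day 9 short-day vasculature array for COR27. For SNZ they turned without the day 9 long-day vasculature (6e-04), the day 9 short-day whole leaf or the day 10 short-day vasculature array (0.0164). Without vasculature STIPL1 had -0.1021, SNZ 0.2715, COR27 0.1724 and AT4G22485 0.0681. Without whole leaf SNZ had 0.0075 and FIO1 0.0205, and without mesophyll FAMT had 0.2984. STIPL1 had -0.0056 with quantile normalization. Day 10 alone gave -0.0683 for STIPL1 and 0.0084 for COR27, and day 9 alone 0.0578 for SIC.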

Other observations

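The ZT0 and ZT8 arrays, which took no part in the calls at ZT4, show where these probe sets stood before and after. Of the 84 called higher in long days at ZT4, 8 were higher at ZT8 than at ZT0 in short days (9.52%, median change -1.38) and 27 in long days (32.1%, median -0.47). Of the 117 called lower, 97 were higher at ZT8 than at ZT0 in short days (82.9%, median 1.08) and 73 in long days (62.4%, median 0.38). Over all 21827 kept probe sets the shares were 50.2% in short days (median 0.001) and 45.4% in long days (median -0.0239). These are descriptions with no test.

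Among named genes, GI changed from ZT0 to ZT8 by 6.63 under long and 6.64 under short days, and WLIM2a, the actin-bundling protein, by 4.56 and 4.39. AKINBETA1 changed by -0.03 under long days but by -2.28 under short days, and SIS by -1.20 and -3.28. For DPE1, of starch breakdown, the changes were 2.71 and 3.25.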
